A study of Homo sapiens with 44 samples.

Results

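Messenger RNA levels of 34 target genes of the transcription factor p53 were followed in HCT116, a human colon cancer cell line, across every group of 2 RNA experiments. The genes were chosen by symbol, as a list of direct p53 targets, and every row with such a symbol was taken. All 34 have a row in the table of the doxorubicin experiment (21159 genes), and 32 in that of the GAS41 experiment (18797 genes). SPATA18 and EDA2R were not analysed in the GAS41 experiment. The series asks how GAS41, a reader of acylated and crotonylated histone H3 encoded by YEATS4, acts in transcriptional repression.

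In the doxorubicin experiment, 3 libraries came from cells kept in the solvent DMSO and 3 from cells treated with doxorubicin at 500 nM, a drug that traps topoisomerase on DNA and breaks it. The length of this treatment was not given in the sources used here. The GAS41 experiment had 4 groups of 3 libraries. WT cells carried intact YEATS4, and GAS41-KO cells carried a knockout of it. The wt rescue cells were GAS41-KO cells with stable expression of GFP-Flag-GAS41 wt. The mut rescue cells were GAS41-KO cells with stable expression of GFP-Flag-GAS41 Y74A/W93A, in which a tyrosine at residue 74 and a tryptophan at residue 93 are each replaced by alanine. All cells descend from HCT116, which the labels give as p53+/+, so p53 itself was not removed in any group. The labels do not say whether a knockout or rescue line is 1 clone or a pool, and the promoter that drives the rescue proteins was not given in the sources used here. The labels call the replicates biological without naming separate cultures, so p-values speak only to the spread among these libraries.

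p53 is held at a low level by the ubiquitin ligase MDM2. DNA breaks activate kinases that free p53 from MDM2, and p53 then binds paired copies of a short motif near its targets and raises their transcription. The products arrest the cell cycle, repair DNA, protect metabolism or start cell death, and some of them, MDM2 and the phosphatase PPM1D among them, turn the response off again. HCT116 cells are widely used to study this response because their p53 is wild type.

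Promoters were searched for the p53 element to show which of the genes carry it close to the start of transcription. The element was spelled as a pair of adjoining decamers, each with the core CNNG at its centre, and at most 4 mismatches to the full motif were allowed outside the cores, whose letters were all kept. The full motif is a palindrome, so both strands were read at once. RefSeq promoters of build GRCh38.p14 matched 27 of the 34 genes. Of these 27, 4 held a match in the 250 bases before the start (14.8%), against 912 of 27305 promoters of the same length over all genes (3.34%). The 4 windows follow because these genes, AEN, FDXR, RPS27L and ZMAT3, hold the element close to the start and recur in the results. Each is written 5′ to 3′ on the gene's own strand, and capitals mark the matched 20 bases.

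AEN, chr15:88621286-88621339, + strand, 2 mismatches, ending 14 bases before the start: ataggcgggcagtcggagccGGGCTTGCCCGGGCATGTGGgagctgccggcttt
FDXR, chr17:74872995-74873035, - strand, 3 mismatches, ending 1 base before the start: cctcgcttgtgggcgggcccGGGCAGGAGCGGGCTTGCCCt
RPS27L, chr15:63157507-63157566, - strand, 3 mismatches, ending 49 bases before the start: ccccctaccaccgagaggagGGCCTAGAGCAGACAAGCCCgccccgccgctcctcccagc
ZMAT3, chr3:179071853-179071912, - strand, 4 mismatches, ending 63 bases before the start: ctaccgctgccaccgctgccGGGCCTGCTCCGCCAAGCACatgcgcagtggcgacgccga

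With 3 mismatches allowed, 3 of the 27 promoters matched, and with 5 allowed PLK2 was added. These are 11.1% and 18.5%, against 0.861% and 9.68% of all promoters, so the excess over all promoters is smallest with 5. A match describes letters only, and no match says nothing of p53 at the other 23 promoters, since many p53 elements lie in introns or further upstream. No binding data were used here.

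Levels are given as normalized reads, which are the reads of a gene divided by the size factor of the library. Library depth was 16857982 to 18546135 reads in the GAS41 experiment, and 17442035 to 18894312 reads for doxorubicin and DMSO. Log2 differences are on the deposited variance-stabilized scale, on which a gene with few reads moves less than its fold. They are given with their standard error (SE), and a gene is called where limma's adjusted p is under 0.05. YEATS4, the gene that was knocked out, stood at 625, 608 and 621 normalized reads in WT and at 386, 337 and 325 in GAS41-KO. The knockout libraries thus kept 0.565 of the WT level of its RNA. In wt rescue YEATS4 RNA lay at 2887, 3500 and 3372 and in mut rescue at 2551, 2358 and 2538 normalized reads, so both lines exceeded WT, by 5.26-fold and 4.01-fold, and mut rescue was below wt rescue (limma adjusted p = 0.000443). The list of colon epithelium markers summed to between 58673 and 169435 normalized reads per library, most of it from the keratins KRT8, KRT18 and KRT19, and VIL1 was at or near 0 in every group but doxorubicin. The fibroblast list reached at most 407, the blood and immune list 389 and the endothelial list 43.4, and PTPRC, the pan-leukocyte marker, had no read in WT, wt rescue and mut rescue.

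Among the epithelial markers, CDH1 and EPCAM moved strongly between the GAS41 groups. CDH1, the adhesion protein E-cadherin, stood at 1418, 1402 and 1436 normalized reads in WT, 131, 128 and 155 in GAS41-KO, 1237, 1438 and 1374 in wt rescue and 157, 155 and 179 in mut rescue. EPCAM, another epithelial adhesion protein, stood at 7876, 7187 and 7446 in WT, 932, 898 and 915 in GAS41-KO, 8126, 9608 and 9302 in wt rescue and 1834, 1511 and 1666 in mut rescue. Both were thus high in WT and wt rescue and low in GAS41-KO and mut rescue, with no overlap between these pairs of groups. CDH1 was 10.3-fold and EPCAM 8.2-fold lower in GAS41-KO than in WT (limma adjusted p = 3.05e-14 and 3.49e-14). Of 8 tested markers 3 were called lower (CDH1, EPCAM and CLDN4) and 3 higher (KRT8, KRT18 and CLDN3), where KRT8 and KRT18 rose 1.36-fold and 1.31-fold. CLDN4 fell only to 0.757 of WT. KRT19 and CDX2 were not called (log2 differences -0.02 ± 0.08 and -0.08 ± 0.08 SE). The part of the marker changes in the results for the p53 target genes was not tested.

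wt rescue replicate 1 stood apart from the other libraries of its group. Its median absolute log2 difference over genes was 0.142 from replicate 2 and 0.121 from replicate 3, against 0.0671 between replicates 2 and 3. In mut rescue, replicate 2 stood apart in the same way. It differed by 0.11 from replicate 1 and by 0.136 from replicate 3, against 0.0745 between replicates 1 and 3. The median SD over genes was 0.0903 in wt rescue and 0.089 in mut rescue, against 0.0517 in WT and 0.0515 in GAS41-KO. Counts that rest on wt rescue are given below with and without wt rescue replicate 1. Leaving out mut rescue replicate 2 was 1 of the alternatives, and its counts are not given on their own.

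Doxorubicin raised the RNA of p53 target genes throughout the list. Of the 32 tested genes 32 were called higher, where 32.3% of 14195 tested genes lay higher by the same rule and 33.4% lower. The median log2 difference of the genes was 1.78, against -0.01 over all tested genes. TRIM22 passed the filter on low reads only through its doxorubicin libraries, so it had to differ. SPATA18 had no read in DMSO and 2 reads in 1 doxorubicin library, and EDA2R, a receptor of the TNF family, had 1 read in the DMSO group and 28 reads in the doxorubicin group, so neither was tested. In these bulk libraries fewer cells of a type and less RNA per cell cannot be told apart.

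**Figure D1:**
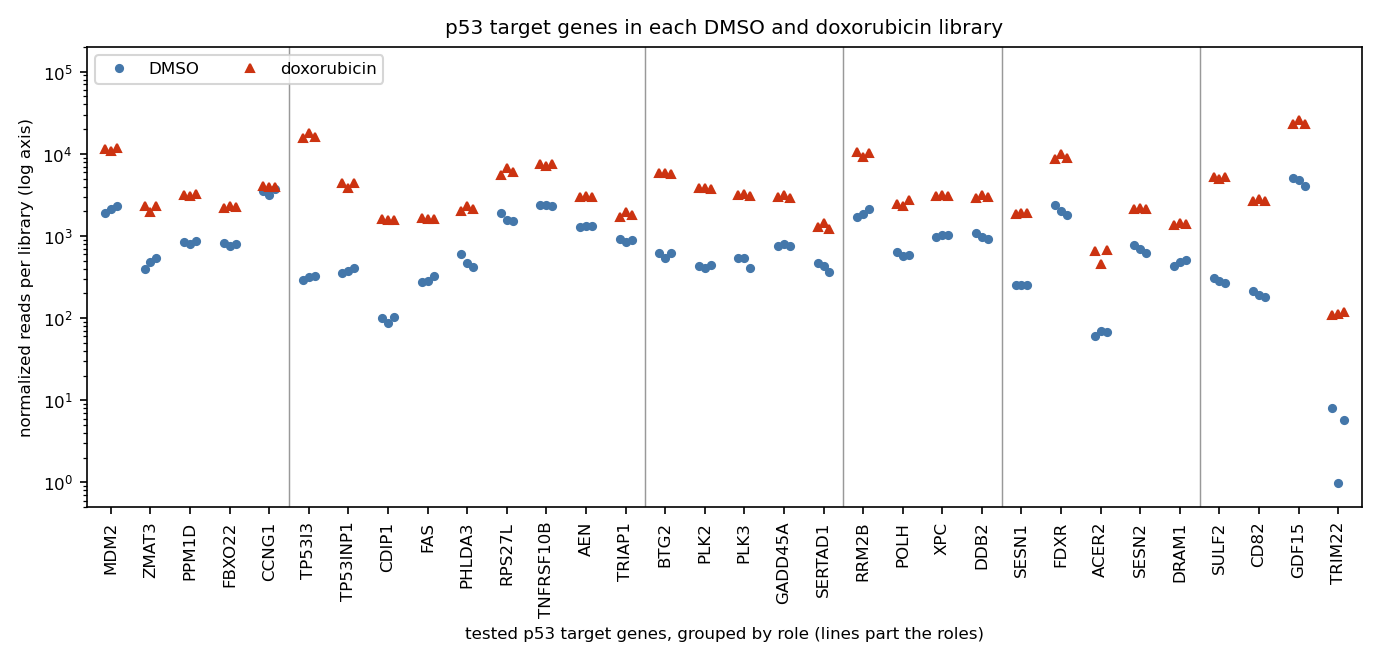
Normalized reads (log axis) of the 32 tested p53 target genes in each of 3 DMSO (circles) and 3 doxorubicin (triangles) libraries, grouped by role between the vertical lines. The doxorubicin libraries lie above the DMSO libraries for every gene drawn, by the most for TP53I3 (53.1-fold) and by the least for CCNG1 (1.15-fold). TRIM22 had to differ by the filter on low reads. Over all tested genes 69.1% had groups that did not overlap, in either direction.

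Feedback genes rose, 5 of 5 called higher, with a median log2 difference of 1.69. MDM2 stood at 1910, 2158 and 2310 normalized reads in the DMSO libraries and at 11487, 10855 and 11693 with doxorubicin. The rise was 5.34-fold (log2 difference 2.31 ± 0.08 SE, limma adjusted p = 6.58e-11), and the groups were far apart. ZMAT3, an RNA-binding zinc finger protein, rose 4.68-fold, PPM1D rose 3.75-fold, and FBXO22, a subunit of a ubiquitin ligase, rose 2.86-fold. CCNG1, which encodes cyclin G1, moved least of all 32 genes. It lay at 3565, 3199 and 3751 in DMSO and at 4077, 3968 and 3996 with doxorubicin, a 1.15-fold rise that was already near the threshold (log2 difference 0.19 ± 0.07 SE, limma adjusted p = 0.0382). The call was lost without DMSO replicate 2 or without any 1 doxorubicin library, with no filter on low reads and with a replicate block, and the adjusted p in these fits ran from 0.0537 to 0.194.

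Genes of death receptors and apoptosis held the widest range of responses, and 9 of 9 tested were called higher. TP53I3, a quinone oxidoreductase tied to oxidative stress, went from 289, 315 and 325 normalized reads to 15459, 17942 and 15881. At 53.1-fold (log2 difference 5.06 ± 0.08 SE, limma adjusted p = 6.48e-14) it had the largest rise on the list and the largest log2 difference of all 14195 tested genes, 5.06. TP53INP1, which promotes autophagy and cell death, went from 358, 377 and 408 to 4364, 3815 and 4440, a rise of 11-fold (log2 difference 2.95 ± 0.07 SE). CDIP1, a pro-apoptotic membrane protein, was low in DMSO at 101, 88.3 and 103 and reached 1590, 1578 and 1573, or 16.2-fold more. The SD of the 3 doxorubicin libraries of CDIP1 was 8.75 normalized reads. The death receptors FAS and TNFRSF10B rose 5.48-fold and 3.16-fold. PHLDA3, an inhibitor of the kinase AKT, rose 4.34-fold, and RPS27L, a ribosomal protein paralog, rose 3.68-fold. RPS27L shares sequence with RPS27, and reads may have been split between them. AEN, a nuclease of apoptotic cells, and TRIAP1, a mitochondrial inhibitor of apoptosis, rose least in this group, by 2.3-fold and 2.07-fold.

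Growth arrest genes and stress kinases rose in 5 of 5 cases, with a median log2 difference of 2.28. BTG2, an antiproliferative factor that recruits RNA deadenylases, stood at 620, 542 and 615 in DMSO and at 5793, 5862 and 5715 with doxorubicin. Its rise was 9.77-fold (log2 difference 2.93 ± 0.07 SE, limma adjusted p = 2.9e-12). PLK2, a polo-like kinase induced by stress, went from 431, 413 and 445 to 3808, 3883 and 3734, or 8.86-fold (log2 difference 2.69 ± 0.06 SE). Its close relative PLK3 rose 6.33-fold. GADD45A, a stress sensor of arrested cells, rose 3.91-fold, and SERTAD1, a cofactor of CDK4 and E2F, rose 3.12-fold.

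DNA repair genes rose in 4 of 4 cases. RRM2B, the p53-induced subunit of ribonucleotide reductase, went from 1700, 1840 and 2110 normalized reads to 10566, 9149 and 10327. This was a rise of 5.32-fold (log2 difference 2.29 ± 0.09 SE, limma adjusted p = 1.75e-10). POLH, the polymerase that copies past ultraviolet damage, rose 4.17-fold. XPC and DDB2, which find lesions for nucleotide excision repair, rose by the same 3.05-fold.

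Metabolic genes rose in 5 of 5 cases, with log2 differences between 1.27 and 2.25. SESN1 and SESN2 encode sestrins, which restrain the growth kinase mTORC1. SESN1 rose 7.41-fold and SESN2 3.07-fold. FDXR, the mitochondrial ferredoxin reductase with the element at its start printed above, rose 4.4-fold. DRAM1, a lysosomal protein of autophagy, rose 2.96-fold, and ACER2, a ceramidase of the Golgi, rose 9.06-fold from a mean of 65.8 normalized reads.

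The list of secreted, membrane and other genes had the largest median, 2.65. Of its genes 4 of 4 were called higher, where 32.3% of all tested genes lay higher, but TRIM22 had to differ by the filter. SULF2, which trims sulfates from heparan sulfate outside the cell, went from 307, 282 and 266 to 5209, 5012 and 5213 normalized reads. Its 18.1-fold rise (log2 difference 3.50 ± 0.07 SE, limma adjusted p = 9.05e-13) was second on the list by log2 difference. CD82, a tetraspanin known as a suppressor of metastasis, went from 216, 193 and 181 to 2657, 2856 and 2689, or 13.9-fold. GDF15, a secreted stress cytokine, went from 5032, 4740 and 4007 to 23111, 25908 and 23404, or 5.26-fold. For all 3 genes the lowest doxorubicin library lay at several times the highest DMSO library. TRIM22, an antiviral ubiquitin ligase, went from 15 reads in the DMSO group to 342 in the doxorubicin group.

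Other genes of the pathway moved as well. CDKN1A, the gene of p21, a CDK inhibitor that arrests the cell cycle, stood at 5997, 5528 and 5273 in DMSO and at 59834, 62526 and 59668 with doxorubicin, a rise of 10.8-fold (log2 difference 3.39 ± 0.08 SE, limma adjusted p = 2.57e-12). Among 39 tested further p53 targets, CDKN1A included, 37 were called higher and 2 lower, with a median of 1.40. SFN, the checkpoint protein 14-3-3 sigma, rose 6.6-fold, NADSYN1 of NAD synthesis 6.22-fold, and the ephrin receptor EPHA2 4.8-fold. The 2 that fell were KITLG, the ligand of KIT, and TNFRSF10D, a decoy TRAIL receptor, which are named here after their values were seen. Of 20 tested genes on the list of p53 regulators, 6 were called higher and 10 lower. Over all tested genes 32.3% lay higher and 33.4% lower. PPP1R13L, an inhibitor of p53, rose 3.27-fold, the acetyltransferase gene KAT2B 4.25-fold and the p53 relative TP73 2.49-fold, while the checkpoint kinase gene CHEK1 fell to 0.504 of its DMSO level. Of 22 cell cycle genes known to be repressed through p53, p21 and the DREAM complex, 18 were called lower, with a median of -1.12. PLK1, BUB1, CCNB1 and CDC20, which drive mitosis, fell to 0.191, 0.22, 0.274 and 0.282 of their DMSO levels. YEATS4 was lower too, at 173, 193 and 188 normalized reads against 694, 612 and 698 (3.61-fold less).

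The knockout of GAS41 raised part of the list with no drug present. Of 32 genes 17 were called higher and 3 lower in GAS41-KO than in WT, where 26.0% of 14505 tested genes lay higher by the same rule and 26.6% lower. The median log2 difference was 0.21, against -0.01 over all tested genes. In a fit of the 2 groups alone 24 genes and 9736 of all genes were called, against 20 and 7624. In the same libraries CDH1 and EPCAM fell to 0.0972 and 0.122 of WT. PLK2 and TP53INP1 rose most, by 7.92-fold and 3.17-fold, and the other 15 rises lay between 1.14-fold (RPS27L) and 2.12-fold (BTG2).

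**Figure D2:**
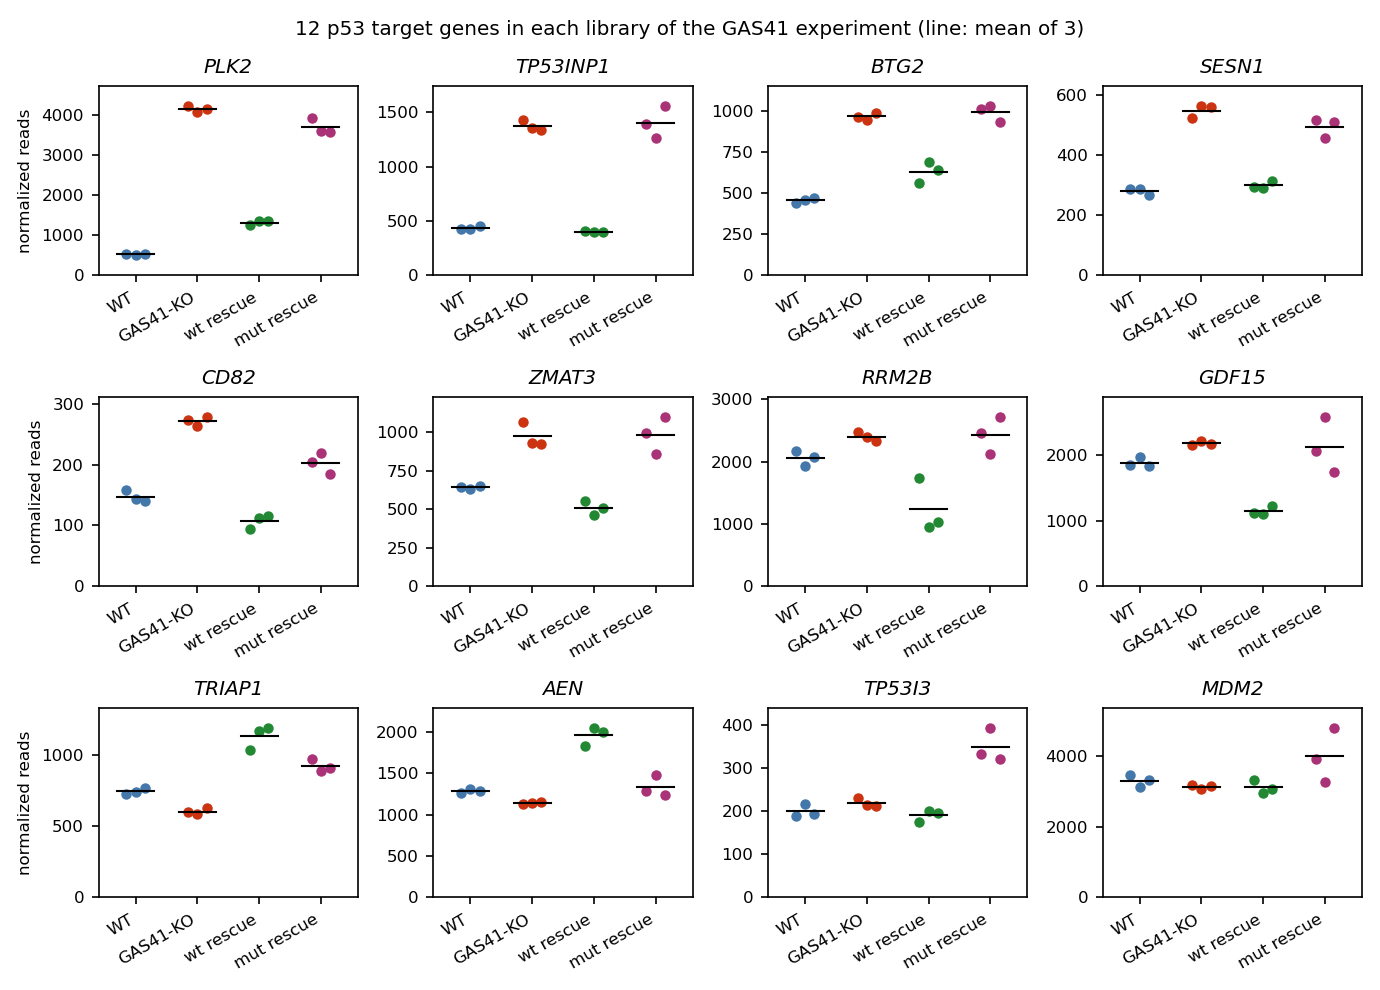
Normalized reads of 12 p53 target genes in each library of WT, GAS41-KO, wt rescue and mut rescue, each on its own axis from 0; points are libraries and the line is the mean of 3. PLK2, TP53INP1, BTG2, SESN1, CD82 and ZMAT3 are high in GAS41-KO and mut rescue, TRIAP1 and AEN are highest in wt rescue, and TP53I3 is highest in mut rescue.

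Growth arrest genes held the largest change, and 3 of 5 were called higher, where 26.0% of all tested genes lay higher. PLK2 stood at 518, 516 and 530 normalized reads in WT and at 4205, 4054 and 4126 in GAS41-KO. Its log2 difference of 2.68 ± 0.06 SE (limma adjusted p = 3.65e-15) was on the scale of its log2 difference with doxorubicin, 2.69 ± 0.06 SE. The folds were 7.92 and 8.86. The experiments were sequenced on different platforms and normalized separately, and their deposited scales shrink low genes to different degrees. BTG2 went from 439, 458 and 471 to 964, 946 and 988, or 2.12-fold (log2 difference 0.89 ± 0.07 SE, limma adjusted p = 1.26e-08). SERTAD1 rose 1.42-fold. GADD45A and PLK3 were not called, with log2 differences of -0.04 ± 0.07 and -0.03 ± 0.07 SE and intervals of -0.19 to 0.12 and -0.17 to 0.11, although both had risen with doxorubicin.

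Of the apoptosis genes 4 of 9 were called higher and 2 lower, where 26.0% of all tested genes lay higher and 26.6% lower. TP53INP1 stood at 425, 423 and 450 in WT and at 1426, 1356 and 1334 in GAS41-KO (log2 difference 1.40 ± 0.07 SE, limma adjusted p = 4.8e-11). TNFRSF10B went from 2389, 2285 and 2319 to 3344, 3381 and 3454, or 1.46-fold (limma adjusted p = 3.37e-06). Both groups were tight for these 2 genes and did not overlap, which was so for 69% of all tested genes. PHLDA3 and RPS27L were called at 1.21-fold and 1.14-fold. CDIP1 fell by 0.33 on the log2 scale, with 92.6, 121 and 117 normalized reads in WT and 54.9, 74.2 and 74.1 in GAS41-KO, and TRIAP1 fell by 0.25. TP53I3, the strongest gene with doxorubicin, was at 189, 216 and 194 in WT and 231, 213 and 212 in GAS41-KO and was not called (log2 difference 0.08 ± 0.07 SE, interval -0.06 to 0.22). FAS and AEN were not called either, with log2 differences of -0.03 ± 0.08 and -0.16 ± 0.07 SE.

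Feedback genes were split. MDM2 was not called, at 3472, 3113 and 3312 in WT and 3168, 3072 and 3140 in GAS41-KO (log2 difference -0.07 ± 0.10 SE, interval -0.28 to 0.13, limma adjusted p = 0.561). Its groups overlapped, and the interval leaves out any rise as large as that of PLK2, TP53INP1, BTG2 or SESN1. ZMAT3 rose from 640, 630 and 651 to 1067, 927 and 919, or 1.52-fold (limma adjusted p = 6.03e-05). CCNG1, which had barely moved with doxorubicin, rose from 3274, 3105 and 3253 to 4806, 4427 and 4551, or 1.43-fold (limma adjusted p = 5e-05). PPM1D was called at 1.2-fold, and FBXO22 was not called (log2 difference -0.09 ± 0.06 SE).

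Repair, metabolic and membrane genes completed the picture. XPC rose 1.34-fold, POLH 1.26-fold and DDB2 1.19-fold, and RRM2B was not called (log2 difference 0.21 ± 0.14 SE), although its GAS41-KO libraries lay above its WT libraries and a fit of the 2 groups alone called it (adjusted p = 2.27e-06). SESN1 rose from 289, 287 and 268 to 525, 564 and 560, or 1.95-fold (limma adjusted p = 4.23e-08), while its relative SESN2 was not called (log2 difference -0.08 ± 0.07 SE). DRAM1 rose 1.53-fold and FDXR 1.27-fold, and ACER2 was not called (log2 difference 0.16 ± 0.08 SE). CD82 rose from 158, 143 and 141 to 273, 264 and 278, or 1.85-fold (limma adjusted p = 1.24e-06). SULF2 fell by 0.17 on the log2 scale, and GDF15 and TRIM22 were not called (log2 differences 0.20 ± 0.10 and 0.11 ± 0.06 SE). GDF15 and AEN were called in a fit of the 2 groups alone (adjusted p = 5.76e-06 and 0.000657). ACER2 was called there and without GAS41-KO replicate 1 (lowest adjusted p = 0.00922), and TRIM22 was called without WT replicate 2 (0.0438).

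Of the 20 calls, 14 held in all 13 alternatives, and the other 6 had log2 differences of at most 0.29 in size. DDB2 missed the threshold without GAS41-KO replicate 2 or 3 or WT replicate 1 (adjusted p from 0.051 to 0.0649), and PHLDA3 without those or WT replicate 3 (0.055 to 0.135). POLH missed it without GAS41-KO replicate 2 or 3 or WT replicate 3 (0.0596 to 0.0694), and PPM1D without GAS41-KO replicate 1 or WT replicate 3 (0.0537 to 0.0593). RPS27L missed it without GAS41-KO replicate 1 or 3 or WT replicate 2 (0.0633 to 0.164), and SULF2 without any 1 of the 6 libraries other than GAS41-KO replicate 3 (0.0587 to 0.11).

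Further p53 targets also rose in GAS41-KO, 22 of 39 tested called higher and 4 lower, with a median of 0.34. CDKN1A stood at 3644, 3711 and 3804 in WT and at 4920, 5084 and 5056 in GAS41-KO, or 1.35-fold (log2 difference 0.42 ± 0.07 SE, limma adjusted p = 8.74e-05). IKBIP rose 2.33-fold, the retinol saturase RETSAT 2.08-fold, APAF1 of the apoptosome 1.9-fold and EPHA2 1.89-fold. The 4 that fell, named after their values were seen, were DDIT4, an inhibitor of mTORC1, at 0.639 of WT, SFN at 0.715, ISCU of iron-sulfur cluster assembly at 0.788 and the cell cycle repressor E2F7 at 0.825. Of 20 tested regulators of p53, 1 was called higher and 7 lower, where 26.0% of all tested genes lay higher and 26.6% lower. KAT2B rose 2.38-fold, and CHEK1, the ubiquitin ligase gene RCHY1 and PPP1R13L fell to 0.659, 0.639 and 0.635 of their WT levels. The DREAM-repressed cell cycle genes were called lower in 15 of 22 cases, with a median of -0.38. MYBL2, CCNA2, MAD2L1 and CDC20 fell to 0.574, 0.582, 0.617 and 0.67 of WT.

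Set side by side, the changes with doxorubicin and in GAS41-KO came from separate libraries, sequenced on different platforms. Over the 32 genes tested in both, Pearson's r of the log2 differences was 0.18 and Spearman's rho 0.15, given as a description over genes that are not independent. PLK2, TP53INP1, BTG2 and CD82 were among the largest changes of each experiment, whereas TP53I3 and SULF2, the top 2 with doxorubicin, stood at 0.08 ± 0.07 and -0.17 ± 0.07 SE in GAS41-KO. MDM2, GDF15 and RRM2B, each above 5-fold with doxorubicin, had log2 differences of -0.07 ± 0.10, 0.20 ± 0.10 and 0.21 ± 0.14 SE in GAS41-KO, the latter 2 called only in the fit of the 2 groups alone. The difference between the 2 responses was not tested.

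**Figure D3:**
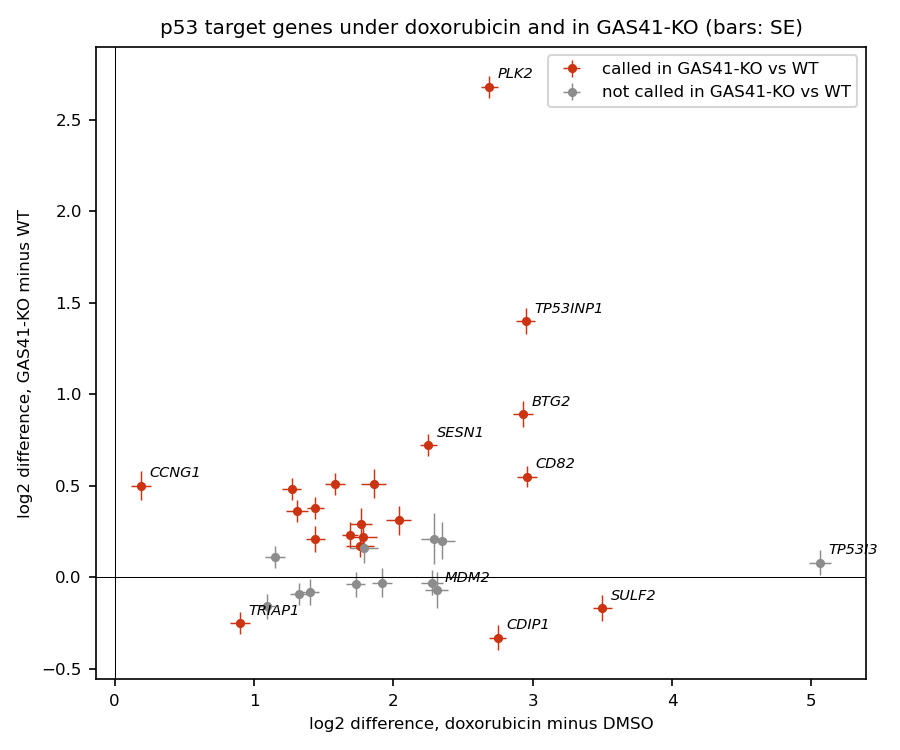
Log2 difference with doxorubicin (x axis) against log2 difference in GAS41-KO (y axis) for 32 p53 target genes, with SE bars; red points are called in GAS41-KO vs WT. PLK2 and TP53INP1 are high on both axes, TP53I3 (5.06 and 0.08) and SULF2 (3.50 and -0.17) lie far to the right and near 0 on the y axis, and CCNG1 (0.19 and 0.50) lies farthest to the left.

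Return of wild-type GAS41 to the knockout cells lowered part of the list, PLK2 and TP53INP1 the most. Of 32 genes 4 were called higher and 16 lower in wt rescue than in GAS41-KO, where 33.0% of tested genes lay higher by the same rule and 33.0% lower. The median log2 difference was -0.20. Without wt rescue replicate 1 the calls were 6 higher and 17 lower, and with that library alone, assumed to vary like the other groups, 2 higher and 16 lower. This comparison shares the GAS41-KO libraries with that of GAS41-KO and WT, so the values of each are set side by side and no overlap is counted. CDH1 and EPCAM stood 9.79-fold and 9.85-fold above GAS41-KO in wt rescue.

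PLK2 fell to 1244, 1341 and 1350 normalized reads in wt rescue, 3.15-fold below GAS41-KO (log2 difference -1.55 ± 0.06 SE, limma adjusted p = 2.29e-12). It had risen by 2.68 on the log2 scale in GAS41-KO, and it stayed 2.52-fold above WT (limma adjusted p = 2.15e-09). TP53INP1 fell to 409, 398 and 396, or 3.42-fold below GAS41-KO (log2 difference -1.48 ± 0.07 SE), and was not called against WT (log2 difference -0.08 ± 0.07 SE, interval -0.22 to 0.06). SESN1 and DRAM1 followed the course of TP53INP1. They were called lower than in GAS41-KO, by 1.83-fold and 1.6-fold, and not called against WT. BTG2 took the course of PLK2, at 563, 687 and 641, 1.53-fold below GAS41-KO and 1.38-fold above WT (limma adjusted p = 0.000422).

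Several genes went below WT in wt rescue. RRM2B stood at 1732, 958 and 1031, with wt rescue replicate 1 far above the other libraries of its group. It was 1.93-fold below GAS41-KO (log2 difference -0.92 ± 0.14 SE, limma adjusted p = 3.6e-05) and 1.65-fold below WT (log2 difference -0.70 ± 0.14 SE). Without wt rescue replicate 1 these log2 differences were -1.16 and -0.94, and with it alone they were -0.44 and -0.23, the latter not called (limma adjusted p = 0.135). GDF15 lay at 1116, 1103 and 1223, all 3 libraries below every WT and GAS41-KO library. It was 1.91-fold below GAS41-KO (log2 difference -0.85 ± 0.10 SE) and 1.64-fold below WT (log2 difference -0.65 ± 0.10 SE, limma adjusted p = 0.000106). Over all tested genes the wt rescue libraries did not overlap those of GAS41-KO in 68.8% and those of WT in 57.3%, in either direction. CD82 lay at 94.6, 112 and 116, 2.54-fold below GAS41-KO and 1.37-fold below WT, the latter lost with quantile normalization (adjusted p = 0.0662). ZMAT3 was 1.91-fold and CCNG1 1.65-fold below GAS41-KO.

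TRIAP1 and AEN went the other way. TRIAP1 stood at 726, 739 and 771 in WT, 599, 586 and 626 in GAS41-KO and 1036, 1172 and 1190 in wt rescue. In wt rescue TRIAP1 was 1.88-fold above GAS41-KO (log2 difference 0.77 ± 0.06 SE, limma adjusted p = 2.76e-08) and 1.52-fold above WT. AEN stood at 1267, 1315 and 1283 in WT, 1134, 1137 and 1148 in GAS41-KO and 1833, 2044 and 1999 in wt rescue. It was 1.72-fold above GAS41-KO (log2 difference 0.71 ± 0.07 SE, limma adjusted p = 1.52e-07) and 1.52-fold above WT (limma adjusted p = 2.14e-05). AEN has the element with the fewest mismatches of the 4 windows printed above.

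The remaining calls against GAS41-KO were smaller. TNFRSF10B, SERTAD1, XPC, FDXR, ACER2 and TRIM22 were called lower, with log2 differences between -0.34 and -0.21, and PLK3 and PHLDA3 higher, at 0.18 ± 0.07 and 0.19 ± 0.08 SE. TRIM22 rested on 30 reads in the GAS41-KO group and 10 in the wt rescue group. FDXR missed the threshold without GAS41-KO replicate 2 or 3 or wt rescue replicate 3 (adjusted p from 0.0605), PLK3 without GAS41-KO replicate 1 or 3 or wt rescue replicate 2 or 3 (from 0.0654), and PHLDA3 without GAS41-KO replicate 1 or 2 or wt rescue replicate 2 or 3 (from 0.0774). ACER2 missed it without GAS41-KO replicate 2 or 3 or wt rescue replicate 2, in a fit of the 2 groups alone and with quantile normalization (from 0.0517 to 0.584), and all of these and TRIM22 (0.156) with wt rescue replicate 1 as the only library of its group. MDM2, FAS, GADD45A, SESN2, TP53I3, DDB2, RPS27L, PPM1D, FBXO22, POLH, CDIP1 and SULF2 were not called, and 7 of these 12 were called in at least 1 alternative.

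Against WT, wt rescue split the list evenly. Of 32 genes 10 were called higher and 10 lower, where 27.4% of tested genes lay higher by the same rule and 22.7% lower, so the counts were near the background. The median log2 difference was 0.00. Without wt rescue replicate 1 the calls were 12 higher and 7 lower, and with that library alone 5 higher and 6 lower. PHLDA3 at 1.43-fold joined PLK2, BTG2, AEN and TRIAP1 among the calls that held in all 14 alternatives, beside SULF2 at 0.713 and GDF15 at 0.608 of WT. POLH, RPS27L and RRM2B lost their calls with wt rescue replicate 1 alone (adjusted p = 0.156, 0.0842 and 0.135), and DDB2 and ZMAT3 there and without wt rescue replicate 2 (0.0544 and 0.0502). FAS, GADD45A, SESN2, XPC, TNFRSF10B, CCNG1 and CDIP1, with log2 differences between -0.22 and 0.18, each missed the threshold without WT replicate 2 or 3 and in at least 2 other alternatives (adjusted p from 0.0511 to 0.904).

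CDKN1A stood at 4512, 5064 and 4978 normalized reads in wt rescue and was not called against GAS41-KO (log2 difference -0.05 ± 0.07 SE, interval -0.19 to 0.10), while it was 1.3-fold above WT (limma adjusted p = 0.000588). With quantile normalization its log2 difference from GAS41-KO was -0.23 and called (limma adjusted p = 0.00305). Further p53 targets were called higher in 8 and lower in 20 of 39 cases against GAS41-KO, with APAF1 at 0.314 and IKBIP at 0.416 of GAS41-KO. The DREAM-repressed genes were called higher in 15 of 22 cases and lower in 3, with a median of 0.59. MYBL2 and CDC20 rose 2.29-fold and 2.09-fold, and the 3 that fell, named after their values were seen, were CENPF, TOP2A and ECT2. Among regulators of p53, 7 of 20 were called higher and 3 lower, where 33.0% of tested genes lay higher and 33.0% lower. The median log2 difference of these regulators was 0.10, and KAT5 and USP7 were among the 7 called higher. ATM, the kinase that signals DNA breaks, fell to 0.365, KAT2B to 0.294 and the kinase gene ATR, named after its value was seen, to 0.728 of GAS41-KO.

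**Figure D4:**
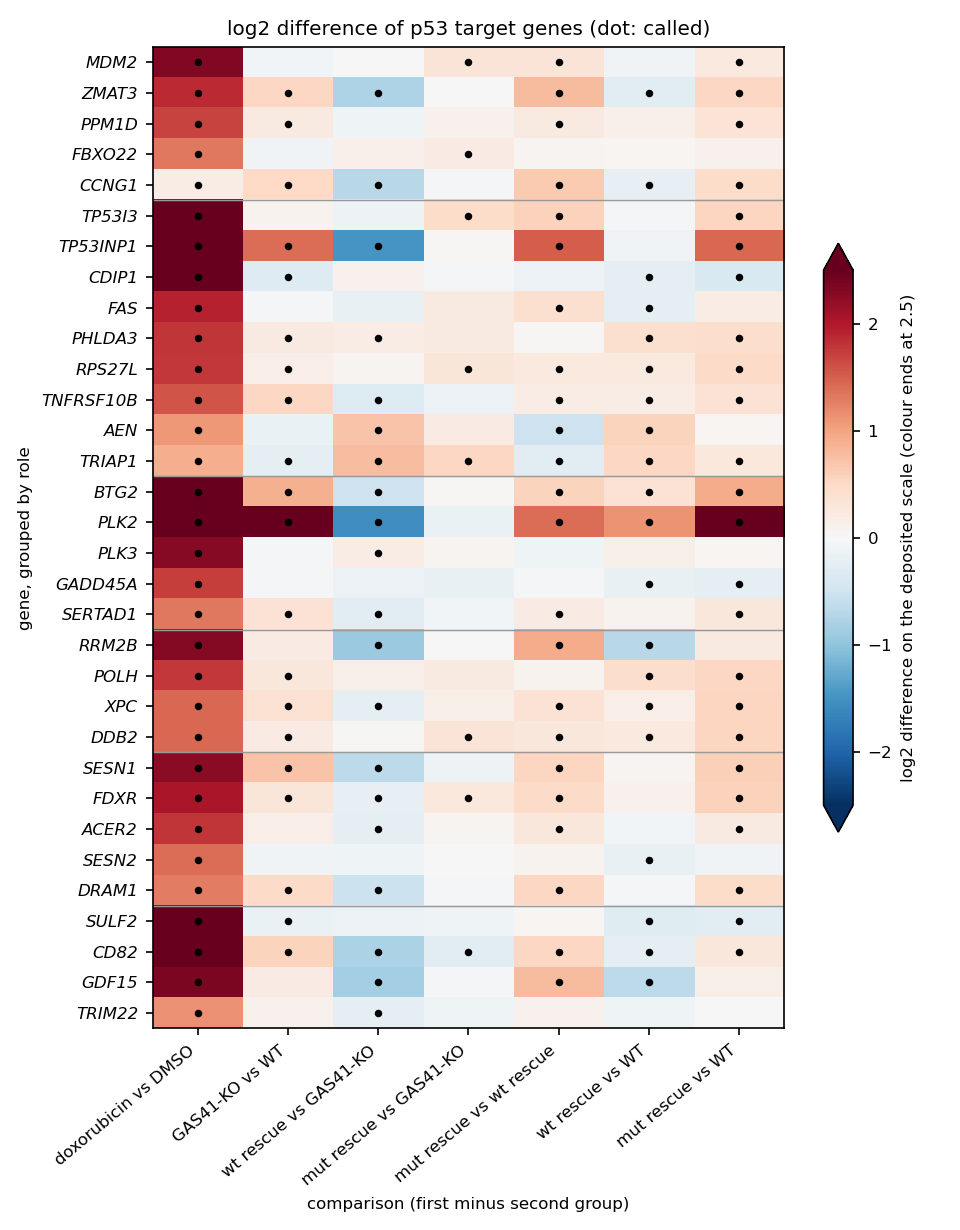
Log2 differences of 32 p53 target genes (rows, grouped by role) in 7 comparisons (columns, first group minus second), on a colour scale that ends at 2.5; a dot marks a called gene. The first column is red throughout, the column of wt rescue against GAS41-KO is mostly blue, with TRIAP1 (0.77) and AEN (0.71) the reddest, and the column of mut rescue against GAS41-KO is pale with 8 dots.

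With the mutant protein most of the genes were not called against the knockout, but the share called higher was above that of all tested genes. Of 32 genes 7 were called higher and 1 lower in mut rescue than in GAS41-KO, where 5.92% of tested genes lay higher by the same rule and 9.00% lower. The median log2 difference was 0.03. PLK2 stood at 3907, 3591 and 3576 normalized reads in mut rescue and was not called (log2 difference -0.16 ± 0.06 SE, interval -0.28 to -0.03, limma adjusted p = 0.0827), with all 3 libraries under those of GAS41-KO and a call with quantile normalization (log2 difference -0.18, adjusted p = 0.027). TP53INP1 stood at 1397, 1265 and 1557 and its groups overlapped (log2 difference 0.03 ± 0.07 SE, interval -0.11 to 0.17). BTG2 and SESN1 were not called either, with intervals of -0.11 to 0.17 and -0.24 to 0.01.

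The genes that did move were mostly raised. TRIAP1 stood at 972, 886 and 908 normalized reads in mut rescue, 1.53-fold above GAS41-KO (log2 difference 0.51 ± 0.06 SE, limma adjusted p = 4.1e-05). TP53I3 stood at 333, 392 and 321, 1.59-fold above GAS41-KO (log2 difference 0.46 ± 0.07 SE, limma adjusted p = 0.000212). All 3 mut rescue libraries of TP53I3 lay above the 9 libraries of the other groups. DDB2 stood at 1102, 1131 and 1062 against 807, 869 and 875 (log2 difference 0.32 ± 0.07 SE), and RPS27L at 1838, 1801 and 1814 against 1551, 1365 and 1422 (log2 difference 0.30 ± 0.06 SE). Their mut rescue libraries were above all GAS41-KO libraries. Over all tested genes 33.7% had groups that did not overlap, in either direction. CD82 was the 1 gene called lower, at 204, 220 and 185 (1.34-fold lower, limma adjusted p = 0.0051).

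MDM2 was called higher in mut rescue, on uneven libraries. It stood at 3913, 3273 and 4787, and mut rescue replicate 3 was far above replicate 2. The log2 difference from GAS41-KO was 0.32 ± 0.10 SE (limma adjusted p = 0.0363). The call was lost without any 1 GAS41-KO library or without mut rescue replicate 1 or 3, where the adjusted p ran from 0.0854 to 0.14. FDXR and FBXO22 were also called, at 1.23-fold and 1.18-fold. FDXR missed the threshold without mut rescue replicate 2 or any 1 GAS41-KO library (adjusted p from 0.0726 to 0.0853), and FBXO22 without mut rescue replicate 1 or GAS41-KO replicate 2 or 3 (0.081 to 0.112). The number of genes called was 5 without GAS41-KO replicate 2 or 3 and at most 9 with 1 library left out.

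Most genes of the pathway lists were not called here, where 5.92% of all tested genes lay higher and 9.00% lower. CDKN1A stood at 5702, 6325 and 5276 and was not called against GAS41-KO (log2 difference 0.19 ± 0.07 SE, limma adjusted p = 0.0744), with a call without mut rescue replicate 3 (adjusted p = 0.0247). Further p53 targets were called higher in 6 and lower in 2 of 39 cases, among them the mTORC1 inhibitor gene DDIT4 at 1.44-fold, the stress factor ATF3 at 1.51-fold and SFN at 1.25-fold. The 2 that fell were the cytokine gene LIF, at 0.741 of GAS41-KO, and EPHA2, at 0.828 and named after its value was seen. The 22 DREAM-repressed genes had a median log2 difference of 0.06, between -0.18 and 0.19. Of 20 regulators the acetyltransferase gene KAT5 was called higher, at 1.24-fold, and the kinase gene HIPK2 and KAT2B lower, at 0.762 and 0.799 of GAS41-KO.

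Between the rescue lines, which differ in the 2 residues of GAS41, most of the list was higher with the mutant. Of 32 genes 21 were called higher and 2 lower in mut rescue than in wt rescue, where 29.8% of tested genes lay higher by the same rule and 31.3% lower. The median log2 difference was 0.29. Without wt rescue replicate 1 the calls were 20 higher and 3 lower, and with it alone 19 higher and 1 lower. YEATS4 RNA also differed between the lines, at 0.763 of wt rescue in mut rescue, and CDH1 and EPCAM stood at 0.121 and 0.185 of wt rescue. The part of these in the results was not tested.

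TP53INP1 was 3.5-fold higher with the mutant (log2 difference 1.51 ± 0.07 SE, limma adjusted p = 3.1e-11) and PLK2 2.81-fold (log2 difference 1.39 ± 0.06 SE). RRM2B stood at 2462, 2120 and 2710 in mut rescue, 1.96-fold above wt rescue (log2 difference 0.93 ± 0.14 SE). Without wt rescue replicate 1 the difference was 1.17, and with it alone 0.45, called in both. GDF15 stood at 2061, 2584 and 1753, 1.86-fold above wt rescue (log2 difference 0.80 ± 0.10 SE), and its mut rescue libraries spread widely. ZMAT3 stood at 992, 854 and 1095 in mut rescue against 553, 465 and 506 in wt rescue, or 1.93-fold (log2 difference 0.79 ± 0.08 SE). The groups of all 5 genes did not overlap, which was so for 57.9% of all tested genes.

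By role, the mutant line was called higher in 4 of 5 feedback genes, 5 of 9 apoptosis genes and 3 of 5 growth arrest genes. It was also called higher in 3 of 4 repair genes, 4 of 5 metabolic genes and 2 of 4 secreted, membrane and other genes. The 2 genes called lower were both apoptosis genes. Over all tested genes 29.8% lay higher and 31.3% lower. CCNG1 was 1.59-fold, SESN1 1.66-fold, DRAM1 1.57-fold, BTG2 1.57-fold, TP53I3 1.83-fold and CD82 1.89-fold higher. AEN and TRIAP1 were lower with the mutant, at 0.681 and 0.814 of wt rescue (limma adjusted p = 8.56e-06 and 0.00203). TRIAP1 and FAS lost the call with wt rescue replicate 1 as the only library of its group (adjusted p = 0.133 and 0.0679), and MDM2, whose groups overlapped, there (0.146) and without mut rescue replicate 3 (0.0511). TNFRSF10B and PPM1D lost it in a fit of the 2 groups alone (0.0977 and 0.0754), PPM1D also without wt rescue replicate 1 (0.0643), and ACER2 with quantile normalization (0.0734).

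Further p53 targets were called higher in 24 and lower in 7 of 39 cases, with KITLG 2.27-fold, IKBIP 2.66-fold and APAF1 2.74-fold higher. CDKN1A was 1.19-fold higher (limma adjusted p = 0.00648, and 0.0532 in a fit of the 2 groups alone). DREAM-repressed genes were called lower in 15 of 22 cases and higher in 3, with a median of -0.56, and MYBL2 and CDC20 stood at 0.48 and 0.55 of wt rescue. The 3 called higher, named after their values were seen, were TOP2A, CENPF and ECT2. Of 20 regulators 4 were called higher and 9 lower, where 29.8% of all tested genes lay higher and 31.3% lower. ATM was 3-fold, KAT2B 2.72-fold and ATR 1.43-fold higher, and the fourth was the deacetylase gene SIRT1, at 1.18-fold and named after its value was seen. Among the 9 called lower the checkpoint kinase gene CHEK2 moved most, to 0.622 of wt rescue.

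Against WT, most of the list was called in mut rescue. Of 32 genes 21 were called higher and 3 lower, where 23.5% of tested genes lay higher by the same rule and 22.9% lower, and the median log2 difference was 0.32. PLK2 was 7.08-fold above WT (log2 difference 2.52 ± 0.06 SE, limma adjusted p = 1.22e-14) and TP53INP1 3.25-fold. BTG2 stood at 1013, 1028 and 932, or 2.17-fold above WT, and SESN1 at 518, 457 and 513, or 1.76-fold. FDXR stood at 1758, 2121 and 1661 against 1108, 1265 and 1189 in WT, or 1.56-fold (log2 difference 0.57 ± 0.08 SE, limma adjusted p = 1.27e-05). These 5 genes had every mut rescue library above every WT library. Over all tested genes 56% had groups that did not overlap, in either direction.

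TP53I3, not called in GAS41-KO, was 1.75-fold above WT in mut rescue (limma adjusted p = 5.63e-06). GADD45A, CDIP1 and SULF2 were called lower, at 0.827, 0.564 and 0.747 of WT. MDM2 was called at 1.21-fold with overlapping groups (limma adjusted p = 0.0476), and 8 of 13 alternatives ended that call, with any 1 WT library or mut rescue replicate 1 or 3 left out among them (adjusted p from 0.0527 to 0.268). ACER2 and GADD45A missed the threshold without WT replicate 2 or 3 or mut rescue replicate 1 or 3 (0.0574 to 0.139 and 0.0521 to 0.068). CDKN1A was 1.55-fold above WT (limma adjusted p = 2.3e-06), further targets were called higher in 25 and lower in 1 of 39 cases, and DREAM-repressed genes were called lower in 15 of 22. The 1 further target called lower was E2F7, a repressor of cell cycle genes, at 0.758 of WT and named after its value was seen.

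**Figure D5:**
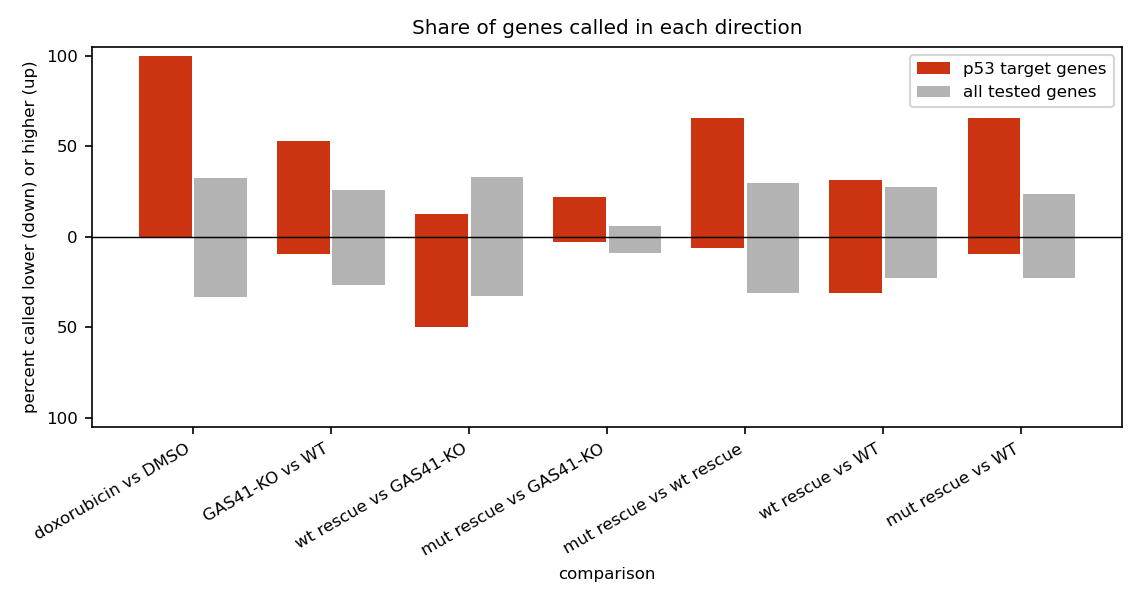
Percent of the 32 tested p53 target genes (red) and of all tested genes (grey) called higher (up) or lower (down) in each comparison. With doxorubicin the red bar reaches 100 percent upward, in GAS41-KO, mut rescue against wt rescue and mut rescue against WT it is mostly upward, in wt rescue against GAS41-KO mostly downward, and in wt rescue against WT it is near the grey.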

How the data were processed

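RNA of HCT116 cells was sequenced in 18 libraries, 6 of the doxorubicin experiment (Illumina) and 12 of the GAS41 experiment (BGISEQ, poly-A RNA). The 26 ChIP and input samples were not analysed here. The submitters' processing notes name HTSeq, DESeq2, TopHat2 2.1.0, Bowtie 1.0.1, CASAVA 1.4 and Trimmomatic 0.36 among the tools and hg19 and mm9 among the builds, with no role for any. The gene annotation was not given in the sources used here. The deposited values are not counts but log2 values made by the authors with a variance-stabilizing step, 1 table per experiment, and 0 value columns were left without a sample.

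Reads and size factors were recovered from the spacing of the deposited log2 values, and every value came back as a whole read within 0.01 reads. On this scale a gene at 39.1 normalized reads (GAS41 experiment) or 52.6 (doxorubicin experiment) lies 1 log2 unit above a gene with no reads, which shrinks changes of low genes. Genes with at least 10 reads in at least 3 libraries were tested, 14505 of 18797 and 14195 of 21159. limma 3.58.1 (R 4.3.3) was fitted to the deposited values over all groups of a table with a trended prior, p-values were adjusted by Benjamini and Hochberg over all tested genes, two-sided, and a gene was called under 0.05. Intervals are at 95%, unadjusted. Count tests were not used, since the deposited values are on a log scale. limma-voom on the recovered reads was an alternative.

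The members, the pathway lists and their roles were chosen with earlier results of these data known. Values per library are printed for MDM2, CDKN1A, YEATS4 and for the called members of largest change (up to 10 with doxorubicin, 8 in GAS41-KO, 5 elsewhere), and up to 4 called genes per pathway list are named. Values per library outside this rule, as for CCNG1 with doxorubicin, TP53I3 in GAS41-KO and the markers CDH1 and EPCAM, were chosen after they were seen. 1 gene of this rule is not reported here. Replicate numbers were not used as pairs in the main fit. The correlation of same-numbered deviations ran from -0.39 to 0.478 in the GAS41 experiment and from -0.393 to 0.15 in the doxorubicin experiment. In the GAS41 experiment it was positive in every pair of groups for replicate 1 (0.136 to 0.231) and replicate 2 (0.004 to 0.478). For replicate 3 it ran from -0.39 to 0.093. Libraries that share a number may thus share some variation, which the main fit leaves out. Promoters came from RefSeq (GRCh38.p14), searched with Python 3.11.15 over 250 bases. Alternatives changed the filter, scale, normalization, prior, libraries in the fit, block and replicates left out.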

Additional observations from a re-analysis of the deposited data

How the results depend on the processing

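Direction held in every member called, under each of the 12 to 14 alternatives of a comparison, and 31 of 32 calls held throughout with doxorubicin, 14 of 20 in GAS41-KO against WT, 15 of 20 in wt rescue against GAS41-KO, 5 of 8 in mut rescue against GAS41-KO, 17 of 23 in mut rescue against wt rescue, 7 of 20 in wt rescue against WT and 21 of 24 in mut rescue against WT. With 1 library left out, mut rescue against GAS41-KO called between 5 and 9 of the p53 target genes and between 1283 and 2374 of all genes (2164 with all libraries), the latter 1419 without mut rescue replicate 1 and 1418, 1375 and 1283 without GAS41-KO replicate 1, 2 or 3. In wt rescue against WT these fits called between 13 and 19 of the p53 target genes, 13 of them without WT replicate 2 or 3, and wt rescue replicate 1 as the only library of its group left 11 of them and 2328 of all genes. The fit of the 2 groups alone called 24 p53 target genes in GAS41-KO against WT, and 19 in wt rescue and 9 in mut rescue against GAS41-KO. It called 21 in mut rescue against wt rescue, and 15 and 25 in wt rescue and mut rescue against WT. Quantile normalization left 14 called in wt rescue against WT. Some p53 target genes not called in the main fit were called in at least 1 alternative. These were 5 of 12 in GAS41-KO against WT, and 7 of 12 in wt rescue and 6 of 24 in mut rescue against GAS41-KO. They were 2 of 9 in mut rescue against wt rescue, and 2 of 12 in wt rescue and 4 of 8 in mut rescue against WT. The replicate numbers carry no stated meaning. With the replicate number as a block, limma called 31 p53 target genes with doxorubicin, 21 in GAS41-KO against WT, 21 in wt rescue and 11 in mut rescue against GAS41-KO, 24 in mut rescue against wt rescue, and 20 and 25 in wt rescue and mut rescue against WT. Over all genes the block raised the calls in each GAS41 comparison, as from 7624 to 7890 in GAS41-KO against WT. With doxorubicin it lowered them from 9326 to 9238. Libraries correlated best with their own number in 2 of 6 cases in the doxorubicin experiment and in 3 or 4 of 6 per pair of groups in the GAS41 experiment. Depth limits TRIM22, SPATA18 and EDA2R most, with 10 to 30 reads per group for TRIM22 in the GAS41 experiment.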

Other observations

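In wt rescue against WT, the pathway lists beside the p53 target genes held calls in both directions, where 27.4% of all tested genes were called higher and 22.7% lower. Of 39 further p53 targets limma called 15 higher and 6 lower. BAX, the pore-forming protein of mitochondrial apoptosis, was 1.67-fold higher, while DDIT4 stood at 0.466, KITLG at 0.65 and APAF1 at 0.597 of WT. BAX had stood 1.68-fold above WT in GAS41-KO as well, and it was not called between wt rescue and GAS41-KO (log2 difference -0.01 ± 0.08 SE). Of 22 DREAM-repressed genes 12 were called higher and 5 lower in wt rescue than in WT. PLK1 was 1.42-fold higher, and CENPF of the kinetochore, the topoisomerase TOP2A and the cytokinesis factor ECT2 stood at 0.537, 0.668 and 0.702 of WT. Of 20 regulators of p53, 4 were called higher and 5 lower, near those shares, with ATM at 0.466 and ATR at 0.642 of WT. The 4 called higher were CHEK2, KAT5, RFWD2 and USP7, and the other 3 called lower were KAT2B, PPP1R13L and RCHY1, in part named after their values were seen.

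In mut rescue against WT, 1 of 20 regulators was called higher and 9 lower, where 23.5% of all tested genes were called higher and 22.9% lower. KAT2B was the one that rose, 1.9-fold, and HIPK2, a kinase that phosphorylates p53, stood at 0.68 and CHEK1 at 0.697 of WT. MDM4, the partner of MDM2 in holding p53 inactive, and USP7, which removes ubiquitin from both p53 and MDM2, were called lower than WT in GAS41-KO, at 0.718 and 0.75, and in mut rescue, at 0.762 and 0.849. In wt rescue USP7 was 1.2-fold above WT and MDM4 was not called (log2 difference -0.23 ± 0.11 SE, interval -0.45 to 0.00). Both were chosen after their values were seen, and the comparisons share the WT libraries.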
